A study of Mus musculus with 19 samples.

Results

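The dendritic cell lineage genes described here are Cd209a, Clec10a, Zbtb46, Batf3, Xcr1, Clec9a, Siglech, Tcf4 and Klrd1. They were taken from a list of genes that mark conventional and plasmacytoid dendritic cells, and 9 of the 9 have counts among the 50854 genes of the table. All 9 also reached the required average of 1 read in the 19 libraries used, so that each was tested among 18652 genes.

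As background, dendritic cells take up antigen and present it to T cells. They arise in the bone marrow from progenitors that depend on the receptor Flt3, as conventional cells of type 1, which need Batf3 and Irf8, conventional cells of type 2, which need Irf4 among other factors, and plasmacytoid cells, which need the E protein encoded by Tcf4 and release type I interferon. Ly6C-high monocytes share progenitors with these lineages, transcribe some of the same genes and can themselves acquire features of dendritic cells during inflammation.

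The study asked whether bone marrow monocytes that express both CCR1 and CCR2 differ from those with CCR2 alone. Cells came from female REP mice of 8 to 12 weeks, which carry fluorescent reporters of the inflammatory chemokine receptors, and were sorted from bone marrow by the reporters of CCR1 and CCR2. The resting groups were CCR1/2+ve monocytes (4 libraries) and CCR2+ve monocytes (4 libraries). The inflamed groups, from REP mice given IL-3, IL-6, GM-CSF and IFN-α by osmotic pump for 7 d, were CCR1/2+ve monocytes (3 libraries), CCR2+ve monocytes (4 libraries) and libraries labelled CCR1 (4 libraries). The study's methods describe pumps with vehicle as well, but mention no pump for resting mice, and the labels name no vehicle. They name no batch either, so inflammation cannot be told apart from the pump or from a batch the inflamed libraries may share. The labels do not say whether replicates came from separate mice, so p-values measure the spread between samples alone. Libraries held from 22268658 to 30502009 reads that fell on genes. Levels are in CPM, read counts scaled to a common library size with TMM factors from the 19 libraries, and a gene was called when its adjusted p was below 0.05 and its absolute log2 fold change at least 1.

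The receptor genes were checked against the sort labels first. Ccr1 was 111.9 ± 20.6 CPM (SD, n = 4) in resting CCR1/2+ve and 75.1 ± 7.07 CPM (n = 4) in resting CCR2+ve monocytes. After inflammation Ccr1 was 309.9 ± 101.9 CPM (n = 3) in CCR1/2+ve and 209.1 ± 57.5 CPM (n = 4) in CCR2+ve monocytes. The resting groups did not overlap, but the inflamed groups did (220.8 to 421.0 and 165.9 to 288.3 CPM, adjusted p = 0.574, exact p = 0.171), so that Ccr1 does not separate these 2 inflamed labels. Ccr2 lay between 473.5 and 1370 CPM in every library of these 4 groups. The 4 libraries labelled inflamed CCR1 went against their label, with Ccr1 at 38.0 ± 4.58 CPM, the lowest mean of the 5 groups, and Ccr2 at 5.81 ± 2.56 CPM. Ngp, a granule protein of neutrophils, took 85940 ± 12740 CPM in them and 363.2 CPM or less in each other library, and the 10 monocyte marker genes summed to 10190 CPM against means of 38660 to 56210 CPM in the other groups. Results are therefore given first for the 15 other libraries and then for these 4, which are called the libraries labelled inflamed CCR1.

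Per kilobase of exon, the order of the 9 genes differed between groups. In resting CCR2+ve monocytes the level was 55.9 ± 20.8 CPM per kb (SD, n = 4) for Cd209a, 14.3 ± 0.778 for Clec10a, 6.45 ± 2.02 for Batf3 and 3.91 ± 0.588 for Tcf4. The other 5 genes lay between 0.103 and 0.913 CPM per kb there. In inflamed CCR2+ve monocytes Clec10a led with 31.2 ± 4.31 CPM per kb, followed by Tcf4 with 3.57 ± 0.297, Batf3 with 2.21 ± 0.584 and Cd209a with 1.76 ± 1.19. The exonic length of Tcf4 covers all its annotated isoforms, so its level per kb is low for a transcript shorter than that. RNA was measured in bulk, so fewer cells of a type and less RNA per cell cannot be told apart.

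**Figure D1:**
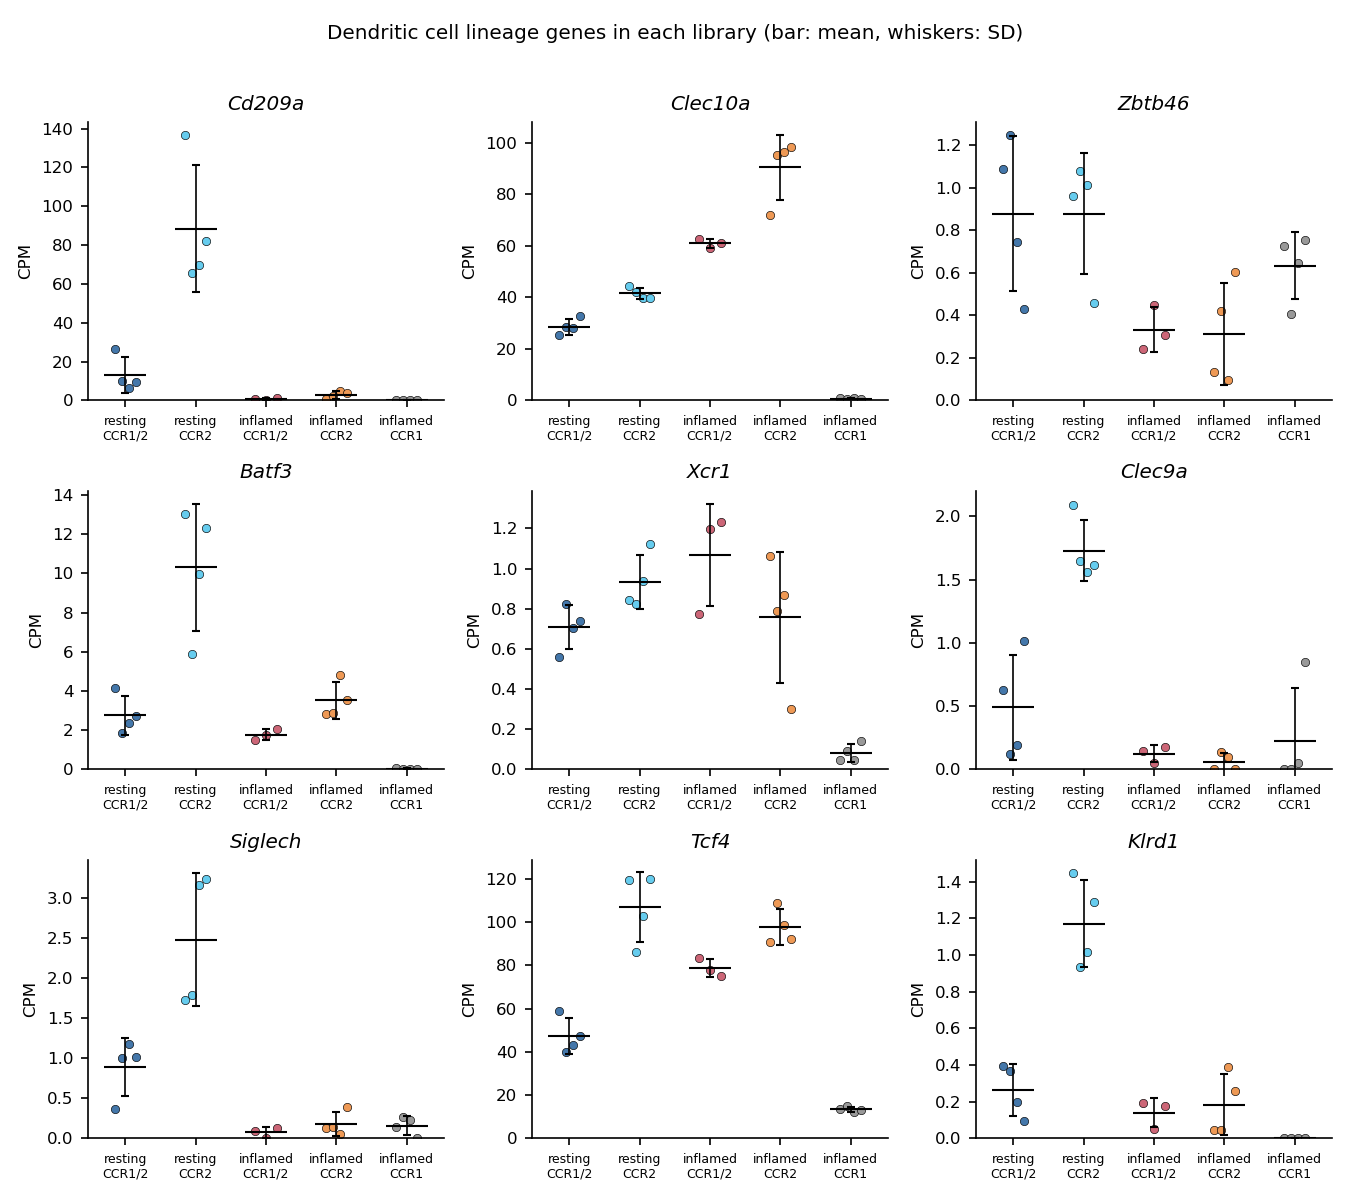
Each panel shows 1 gene, with the level in CPM on the vertical axis and the 5 groups on the horizontal axis; points are libraries, bars are means and whiskers are SD (n = 3 for inflamed CCR1/2, otherwise 4). Resting CCR2+ve libraries sit above resting CCR1/2+ve libraries for each gene but Zbtb46, for Xcr1 by a narrow gap (0.825 and 0.824 CPM), and Clec10a reached 98.3 CPM in inflamed CCR2+ve monocytes, where Cd209a was at most 4.79 CPM. The share of all genes that part the resting groups in this way was not counted.

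Cd209a encodes a C-type lectin of the DC-SIGN family found on monocyte-derived dendritic cells and conventional cells of type 2. In resting CCR2+ve monocytes it was measured at 137, 65.4, 69.8 and 82.2 CPM in replicates 1 to 4, and in resting CCR1/2+ve monocytes at 26.6, 10.1, 6.26 and 9.37 CPM. In inflamed CCR2+ve monocytes the levels of Cd209a were 0.531, 2.05, 4.79 and 3.79 CPM, and in inflamed CCR1/2+ve monocytes 0.533, 0.350 and 1.23 CPM in replicates 2 to 4. Every resting CCR2+ve library lay above every resting CCR1/2+ve library, every resting library lay above every inflamed library, and the 2 inflamed groups overlapped. Mean Cd209a was 6.77-fold lower in resting CCR1/2+ve than in resting CCR2+ve monocytes (log2 fold change -2.67 ± 0.48 (SE), adjusted p = 0.00734, and -3.29 without resting CCR1/2 replicate 1). With inflammation it was 31.7-fold lower in CCR2+ve monocytes (-5.06 ± 0.55, adjusted p = 7.34e-05). The same comparison in CCR1/2+ve monocytes gave an 18.6-fold lower mean (-4.33 ± 0.67, adjusted p = 0.000638). That value was -3.65 without resting CCR1/2 replicate 1 and -5.04 without inflamed CCR1/2 replicate 4.

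The sequence around the start of Cd209a is shown because, with all libraries, this gene had the largest fall of the 9 with inflammation in both populations. In CCR2+ve monocytes its lead over Clec9a was narrow (-5.06 ± 0.55 and -4.87 ± 0.62). Without inflamed CCR2 replicate 2 Clec9a was -5.66, beyond the range of Cd209a with 1 library left out (-5.44 to -4.70). Windows of 300 bases, from 250 before to 50 after a start site, were found in RefSeq (GRCm38.p6) for 6 of the 9 genes, Cd209a, Zbtb46, Batf3, Xcr1, Clec9a and Siglech. They were searched on both strands for the E-box CANNTG, held by 72.3% of 32851 such windows, the AP-1 motif TGANTCA (7.81%), the Ets-IRF composite GGAANNGAA (8.24%) and the interferon-stimulated response element GAAANNGAA (8.56%). The window of Cd209a lies at chr8:3748935-3749234 on the minus strand. It is written 5′ to 3′ with 2 Ets-IRF composites in capitals, at -152 on the strand of the gene and at -8 on the other strand.
Cd209a: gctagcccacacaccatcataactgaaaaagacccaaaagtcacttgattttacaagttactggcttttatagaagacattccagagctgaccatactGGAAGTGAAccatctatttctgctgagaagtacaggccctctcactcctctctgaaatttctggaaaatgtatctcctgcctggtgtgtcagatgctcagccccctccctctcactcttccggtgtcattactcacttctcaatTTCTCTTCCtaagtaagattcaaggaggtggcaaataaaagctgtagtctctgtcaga
The same window holds 2 E-boxes, at -209 and -63. A start in RefSeq need not be the outermost start of the gene. That of Zbtb46 lies 35.04 kb, and that of Batf3 567 bases, inside the gene annotated by Ensembl, and positions here count from the start in RefSeq. Among the other 5 windows an AP-1 motif was found in Zbtb46 (at -61), a response element in Clec9a (at -2) and no Ets-IRF composite. E-boxes numbered 6 in Zbtb46, 2 in Batf3, 1 in Xcr1 and 1 in Clec9a. A match describes these letters only, and binding was not measured.

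Clec10a, another C-type lectin of conventional cells of type 2 and of macrophages, went the other way with inflammation. In resting CCR2+ve monocytes it was measured at 44.4, 42.1, 39.6 and 39.8 CPM and in resting CCR1/2+ve monocytes at 25.2, 28.5, 28.0 and 32.6 CPM. Inflamed CCR2+ve monocytes held 71.7, 95.0, 96.3 and 98.3 CPM of Clec10a, and inflamed CCR1/2+ve monocytes 62.6, 59.3 and 60.8 CPM. No 2 of these 4 groups overlapped, and the order was inflamed CCR2+ve, inflamed CCR1/2+ve, resting CCR2+ve, resting CCR1/2+ve. In CCR2+ve monocytes Clec10a rose 2.18-fold with inflammation (log2 fold change 1.05 ± 0.12, adjusted p = 3.54e-06). That value lies close to the fold threshold, and it was 0.98 when reads were scaled by library sizes alone and 0.995 without inflamed CCR2 replicate 4, so that the call was lost in both. Its level in CCR1/2+ve monocytes was 2.13-fold higher with inflammation (0.97 ± 0.10, adjusted p = 1.32e-05), just under the fold threshold. It passed there with DESeq2 or with RLE size factors (1.05 in each), with all 19 libraries in 1 fit (1.09), and without resting CCR1/2 replicate 2 (1.02) or 4 (1.01). Between the resting populations Clec10a differed by -0.46 ± 0.09 on the log2 scale (adjusted p = 0.0049), which is also under the fold threshold.

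Zbtb46 encodes a transcription factor found in conventional dendritic cells and their precursors and not in most other leukocytes. Its level was at most 1.25 CPM in any library, with 107 reads in all over the 4 resting CCR1/2+ve libraries and 91 over the 4 resting CCR2+ve libraries. The mean was 0.878 ± 0.365 CPM in resting CCR1/2+ve and 0.878 ± 0.285 CPM in resting CCR2+ve monocytes (log2 fold change 0.08 ± 0.42, adjusted p = 0.933). With inflammation Zbtb46 fell to 0.313 ± 0.241 CPM in CCR2+ve monocytes (-1.54 ± 0.55, adjusted p = 0.0327), with overlapping groups (exact permutation p = 0.0571, n = 4 and 4). This call was lost without resting CCR2 replicate 1 (adjusted p = 0.0757), 2 (0.0867) or 3 (0.0804), or without inflamed CCR2 replicate 1 (0.0849) or 3 (0.0797). In CCR1/2+ve monocytes it was 0.333 ± 0.106 CPM after inflammation (-1.54 ± 0.54, adjusted p = 0.0356), again with overlap. That call was lost without resting CCR1/2 replicate 1 (0.0862) or 2 (0.105), without inflamed CCR1/2 replicate 2 (0.102), 3 (0.0507) or 4 (0.089), and with replicate number as a block (0.121).

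Batf3, a factor of the AP-1 family required by conventional cells of type 1, was the most abundant of the 3 genes of that lineage per kb in each of the 4 groups. In resting CCR2+ve monocytes Batf3 was measured at 13.1, 5.89, 9.96 and 12.3 CPM and in resting CCR1/2+ve monocytes at 4.15, 1.83, 2.35 and 2.71 CPM. Inflamed CCR2+ve monocytes held 2.83, 2.89, 4.84 and 3.53 CPM, and inflamed CCR1/2+ve monocytes 1.502, 1.75 and 2.07 CPM. The resting CCR2+ve libraries lay above all others, while resting CCR1/2+ve libraries overlapped with both inflamed groups. Batf3 was 3.73-fold lower in resting CCR1/2+ve than in resting CCR2+ve monocytes (log2 fold change -1.82 ± 0.29, adjusted p = 0.000981). It fell 2.93-fold with inflammation in CCR2+ve monocytes (-1.61 ± 0.26, adjusted p = 0.000108). Its difference with inflammation in CCR1/2+ve monocytes was -0.77 ± 0.34 (adjusted p = 0.0868).

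Clec9a, a lectin receptor for actin exposed on dead cells, and Xcr1, the receptor of the chemokine XCL1, define mature conventional cells of type 1, and both were near the limit of detection. Clec9a was measured at 2.09, 1.65, 1.56 and 1.62 CPM in resting CCR2+ve and at 0.626, 0.122, 0.196 and 1.02 CPM in resting CCR1/2+ve monocytes. In the 7 inflamed libraries of these populations it ranged from 0 to 0.176 CPM, with 5 reads in all from the CCR2+ve and 8 from the CCR1/2+ve population. The resting groups did not overlap, and Clec9a was 3.53-fold lower in resting CCR1/2+ve monocytes (log2 fold change -1.73 ± 0.52, adjusted p = 0.0363). This call was lost without resting CCR1/2 replicate 1 (adjusted p = 0.051), 2 (0.0661) or 3 (0.0743), without resting CCR2 replicate 1 (0.0942), 2 (0.0524), 3 (0.0657) or 4 (0.0668), and with all 19 libraries in 1 fit (0.134). Without resting CCR1/2 replicate 4 the value was -2.35. With inflammation Clec9a fell 29.3-fold in CCR2+ve monocytes (-4.87 ± 0.62, adjusted p = 9.69e-06). From the 5 reads there the ratio of pooled counts was 30.4, with a 95% counting interval of 12.8 to 94.8, and the log2 fold change was -5.66 without inflamed CCR2 replicate 2. In CCR1/2+ve monocytes the difference was -2.05 ± 0.85 (adjusted p = 0.0704), which passed without resting CCR1/2 replicate 2 (0.0317) or 3 (0.0473) and not without any of the other 5 libraries. With 1 library left out it lay between -2.40 and -1.45, the latter without resting CCR1/2 replicate 4 (Clec9a adjusted p = 0.213). Part of the exons of Clec9a, 5.59% of their bases, is shared with Clec1b. Xcr1 lay between 0.301 and 1.23 CPM in all 15 libraries, and no comparison among these 4 groups called it.

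Siglech encodes a surface lectin that defines mouse plasmacytoid cells. It was measured at 1.73, 1.79, 3.16 and 3.24 CPM in resting CCR2+ve monocytes and at 0.362, 1.01, 1.17 and 1.02 CPM in resting CCR1/2+ve monocytes. In the 7 inflamed libraries Siglech was at most 0.387 CPM, with 16 reads in all from the CCR2+ve and 5 from the CCR1/2+ve population. Every resting CCR2+ve library lay above every resting CCR1/2+ve library, and the inflamed CCR1/2+ve libraries lay below both. Siglech was 2.79-fold lower in resting CCR1/2+ve monocytes (log2 fold change -1.40 ± 0.37, adjusted p = 0.0211), a call lost without resting CCR2 replicate 3 (0.069) or 4 (0.068) and with all 19 libraries in 1 fit (0.0524). With inflammation it fell 14.0-fold in CCR2+ve monocytes (-3.80 ± 0.49, adjusted p = 1.15e-05, and -4.53 without inflamed CCR2 replicate 4). The fall in CCR1/2+ve monocytes was 11.7-fold (-3.55 ± 0.76, adjusted p = 0.00229, and -4.19 without inflamed CCR1/2 replicate 4), with a 95% counting interval of 4.66 to 35.2 for the ratio.

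The E protein of plasmacytoid cells binds E-boxes, so the window of Siglech (GRCm38.p6, RefSeq, chr7:55767934-55768233, plus strand) is printed 5′ to 3′ with its 3 E-boxes in capitals, at -235, -56 and -20. An E-box is present in 72.3% of all such windows, and its presence here is a description only.
Siglech: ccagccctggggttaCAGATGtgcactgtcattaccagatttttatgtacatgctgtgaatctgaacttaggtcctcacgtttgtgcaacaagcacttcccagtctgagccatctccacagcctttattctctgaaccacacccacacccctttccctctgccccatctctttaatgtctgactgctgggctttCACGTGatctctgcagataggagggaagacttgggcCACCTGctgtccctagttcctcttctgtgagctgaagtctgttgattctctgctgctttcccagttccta

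With inflammation Tcf4, which encodes that E protein, did not follow Siglech, although both were lower in resting CCR1/2+ve than in resting CCR2+ve monocytes. It was measured at 119.3, 86.1, 102.8 and 120.1 CPM in resting CCR2+ve and at 58.7, 40.1, 43.3 and 47.2 CPM in resting CCR1/2+ve monocytes. Inflamed CCR2+ve monocytes held 91.01, 108.8, 98.7 and 92.4 CPM, and inflamed CCR1/2+ve monocytes 83.2, 77.7 and 75.2 CPM. Resting CCR1/2+ve libraries were the lowest of the 4 groups, without overlap, while resting and inflamed CCR2+ve libraries overlapped. Tcf4 was 2.26-fold lower in resting CCR1/2+ve than in resting CCR2+ve monocytes (log2 fold change -1.10 ± 0.13, adjusted p = 0.000176). With inflammation it differed by -0.20 ± 0.12 in CCR2+ve monocytes (adjusted p = 0.17). In CCR1/2+ve monocytes it was 1.66-fold higher with inflammation (0.60 ± 0.13, adjusted p = 0.00286), which is under the fold threshold. The difference between these 2 responses of Tcf4 was 0.76 ± 0.18 on the log2 scale (unadjusted p = 0.000443 from the edgeR fit of 15 libraries, adjusted p = 0.0636), so it did not pass the correction over all genes.

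Klrd1 encodes CD94, a partner of NKG2 receptors on NK cells that is also transcribed in some dendritic cells. It was measured at 1.45, 0.933, 1.02 and 1.29 CPM in resting CCR2+ve monocytes and at 0.395, 0.366, 0.196 and 0.0925 CPM in resting CCR1/2+ve monocytes. In the 7 inflamed libraries Klrd1 ranged from 0.0443 to 0.387 CPM. The resting CCR2+ve libraries lay above all 11 others. Klrd1 was 4.46-fold lower in resting CCR1/2+ve monocytes (log2 fold change -2.05 ± 0.46, adjusted p = 0.00892). It fell 6.36-fold with inflammation in CCR2+ve monocytes (-2.71 ± 0.57, adjusted p = 0.00103, and -3.32 without inflamed CCR2 replicate 3). In CCR1/2+ve monocytes the difference was -1.03 ± 0.80 (adjusted p = 0.324). Klrd1 and Clec9a lie 167 kb apart on chromosome 6.

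**Figure D2:**
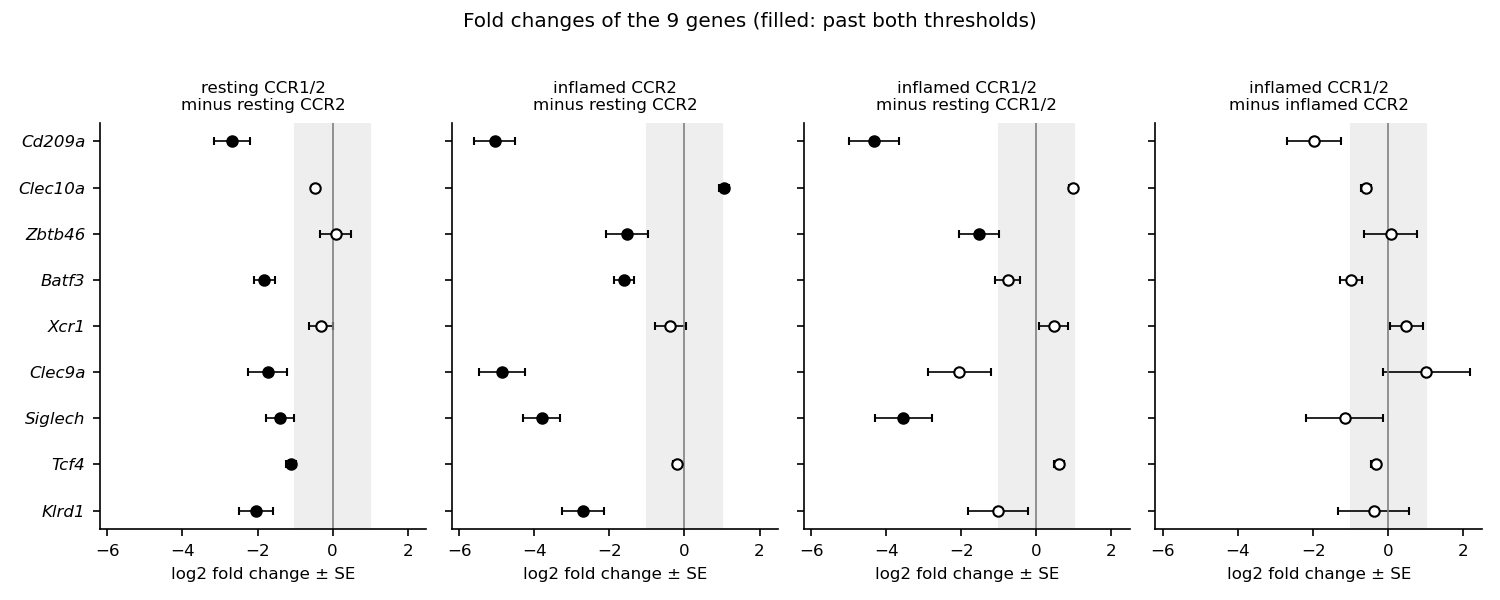
Each panel is 1 comparison and each row 1 gene; points are log2 fold changes on the horizontal axis, whiskers are SE, filled points passed both thresholds and the grey band spans fold changes under the threshold. Between the resting populations 6 points are filled, with Cd209a farthest from 0 at -2.67, and between the inflamed populations no point is filled.

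The comparison of resting CCR1/2+ve with resting CCR2+ve monocytes asked which genes part the populations before inflammation. Cd209a, Klrd1, Batf3, Clec9a, Siglech and Tcf4, 6 of the 9, had a lower level in the CCR1/2+ve population, where 1.90% of all genes tested were called lower. None of the 9 was called higher by edgeR, against 2.34% of all genes, and the number of the 9 that were higher at an unadjusted p below 0.05, or called higher by DESeq2, was 0. The median log2 fold change was -1.40 over the 9 genes and 0.03 over all genes. All genes called higher numbered 437, and 258 without resting CCR2 replicate 4. The replicate numbers pair these libraries, and with the number as a block the count of lower genes among the 9 was 6. That count was 4 with all 19 libraries in 1 fit and 4 without resting CCR2 replicate 3 or 4. It was 5 without resting CCR2 replicate 1 or 2, or without resting CCR1/2 replicate 1, 2 or 3.

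Other genes of the lineages were read from lists. Among 18 genes of dendritic cell commitment, 2 were lower in resting CCR1/2+ve monocytes and 1 was higher. Flt3, the cytokine receptor of dendritic cell progenitors, was measured at 22, 23.8, 33.0 and 49.95 CPM in resting CCR2+ve and at 3.39, 5.37, 5.72 and 6.63 CPM in resting CCR1/2+ve monocytes (log2 fold change -2.53 ± 0.26, adjusted p = 9.41e-05). Irf4, a transcription factor of conventional cells of type 2, was measured at 17.3, 13.4, 16.1 and 18.7 CPM against 2.41, 2.69, 1.76 and 2.71 CPM (-2.69 ± 0.17, adjusted p = 1.51e-05). Neither gene overlapped between the groups. Of 8 other genes of type 2 conventional cells tested, 2 were lower, Cd209d, a paralogue of Cd209a, among them (-3.20 ± 0.45, adjusted p = 0.000497), and 0 were higher. Of 10 other genes of type 1 cells tested, 0 were called in either direction. Of 15 other genes of plasmacytoid cells, 2 were lower, including Tlr7, an endosomal sensor of RNA (-1.13 ± 0.12, adjusted p = 8.88e-05).

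Of 11 genes of MHC class II presentation, 4 were lower in resting CCR1/2+ve monocytes, 0 were higher and 7 were not called, with a median of -0.81. Cd74, the invariant chain, was measured at 1694, 601.9, 636.5 and 1177 CPM in resting CCR2+ve and at 304.6, 121.7, 125.2 and 158.0 CPM in resting CCR1/2+ve monocytes, without overlap (-2.46 ± 0.45, adjusted p = 0.0081). Replicate 1 had the highest Cd74 of its group in both populations, as it did for Cd209a and Batf3. Of 10 genes of dendritic cell maturation tested, 1 was lower, Cd40, a receptor for help from T cells (-1.39 ± 0.19, adjusted p = 0.000392), and 0 were higher.

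Markers of other cell types moved in the same comparison. Of 13 NK and T cell genes tested, 3 were lower in resting CCR1/2+ve monocytes, with Il2rb among them (-3.14 ± 0.76, adjusted p = 0.0133, and -3.79 without resting CCR1/2 replicate 3), and 1 was higher, Nkg7 (2.62 ± 0.40, adjusted p = 0.00246), a granule gene that made up most of the sum in those libraries. Called or not, 12 of the 13 had a log2 fold change below 0 and 1 above. Their median was -1.295, close to the -1.395 of the 9 dendritic cell lineage genes. The 16 NK and T cell genes summed to 49.0 to 101.4 CPM in resting CCR1/2+ve and 29.8 to 47.9 CPM in resting CCR2+ve libraries, with Klra8 at 0 in the former. Of 9 genes of tissue macrophages, 5 were higher and 2 lower, and their sum was 50.9 to 135 CPM against 46.5 to 88.2 CPM (most abundant Vcam1 and Axl). Among 10 monocyte genes 2 were lower and 0 higher, among 10 B cell genes 1 was higher and 0 lower, and among 7 neutrophil genes 1 was higher and 0 lower. The monocyte genes summed to 31930 to 44780 CPM against 47650 to 53990 CPM (most abundant Lyz2), the B cell genes to 593.6 to 717.8 CPM against 762.5 to 1011 CPM (Ighm), and the neutrophil genes to 388.2 to 608.9 CPM against 446.7 to 731 CPM (Mmp8). The part of cells of these other types in the levels of the 9 genes was not tested.

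**Figure D3:**
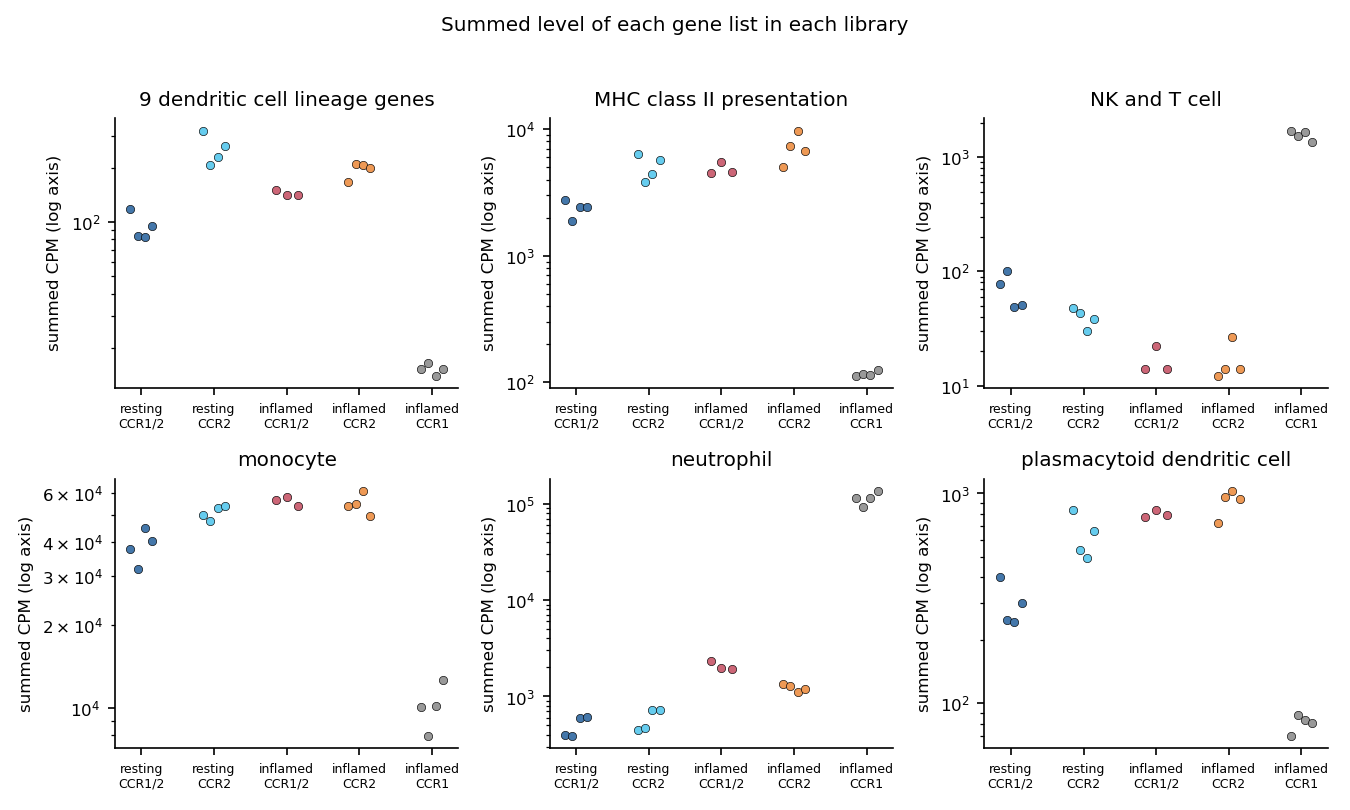
Each panel shows the summed level of a gene list in each library, in CPM on a log axis, for the 5 groups; points are libraries. The 9 dendritic cell lineage genes summed to 205.7 to 320.4 CPM in resting CCR2+ve and 82.9 to 117.6 CPM in resting CCR1/2+ve libraries, and the libraries labelled inflamed CCR1 stand apart in every panel.

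Inflammation of CCR2+ve monocytes was compared with the same population at rest. Of the 9 genes, 6 fell, Cd209a, Clec9a, Siglech, Klrd1, Batf3 and Zbtb46, against 19.2% of all genes called lower. Clec10a alone of the 9 rose, against 9.37% of all genes called higher. The median log2 fold change was -1.61 over the 9 genes and -0.10 over all genes. The 9 genes summed to 195.9 ± 19.5 CPM (SD, n = 4) after inflammation and to 254.5 ± 49.6 CPM at rest, and Tcf4 made up 49.9% and 42.1% of these sums.

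Most commitment genes moved with it. Of 18, 10 were lower and 1 was higher in inflamed CCR2+ve monocytes. Spi1, which encodes the myeloid factor PU.1, was measured at 37.4, 37.3, 37.2 and 40.5 CPM against 694.5, 655.6, 773.8 and 816.4 CPM at rest (log2 fold change -4.34 ± 0.11, adjusted p = 2.95e-12). It was as low in the libraries labelled inflamed CCR1, at 23.3, 24.0, 24.5 and 24.9 CPM. Irf8, a factor of monocytes, type 1 conventional and plasmacytoid cells, was measured at 97.9, 61.4, 108.5 and 81.6 CPM against 464.1, 461.5, 489.7 and 525.4 CPM (-2.54 ± 0.16, adjusted p = 3.89e-09). The chains of the GM-CSF receptor moved apart. Csf2ra fell by 3.79 ± 0.11 on the log2 scale (adjusted p = 1.01e-11), whereas Csf2rb rose (1.41 ± 0.10, adjusted p = 2.48e-08). GM-CSF was among the cytokines infused, and its part in these changes was not tested.

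Of 15 other plasmacytoid genes 7 fell and 0 rose in inflamed CCR2+ve monocytes, among them Atp1b1 (-4.60 ± 0.74, adjusted p = 0.000103, and -5.53 without inflamed CCR2 replicate 4) and Ly6d (-2.66 ± 0.49, adjusted p = 0.000359). Of 8 other type 2 genes 2 fell, the lymphotoxin gene Ltb (-5.47 ± 0.43, adjusted p = 5.45e-08) and Cd209d, and 1 rose. Cd209d had 1 read in inflamed CCR2+ve monocytes, in replicate 2, and its ratio of resting to inflamed was 142.5, with a 95% counting interval of 25.2 to 5663 (adjusted p = 6.01e-07). Of 10 other type 1 genes 1 rose and 0 fell, and of 10 maturation genes 1 fell and 0 rose. Of 11 genes of MHC class II presentation 2 rose, with Ciita, the master regulator of these genes, among them (2.64 ± 0.69, adjusted p = 0.016, 0.135 with replicate number as a block, and 3.47 without resting CCR2 replicate 1), and 1 fell, H2-Ob, which restrains peptide loading (-1.98 ± 0.42, adjusted p = 0.00106), with a median of 0.13. Of 13 NK and T cell genes 6 fell and 1 rose, and the sum of 16 was 12.2 to 26.4 CPM against 29.8 to 47.9 CPM at rest (most abundant Klrk1, with Klra8 at 0 after inflammation). Neutrophil genes rose in 3 of 7 and fell in 0 (sum 1121 to 1357 CPM, most abundant Mmp8), tissue macrophage genes rose in 5 of 9 and fell in 0 (125.1 to 212.6 CPM, Axl), monocyte genes rose in 1 of 10 and fell in 1 (49670 to 61080 CPM, Lyz2), and B cell genes fell in 2 of 10 and rose in 0 (908 to 1690 CPM, Ighm, with Pax5 at 0). Their part in the levels of the 9 genes was not tested.

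**Figure D4:**
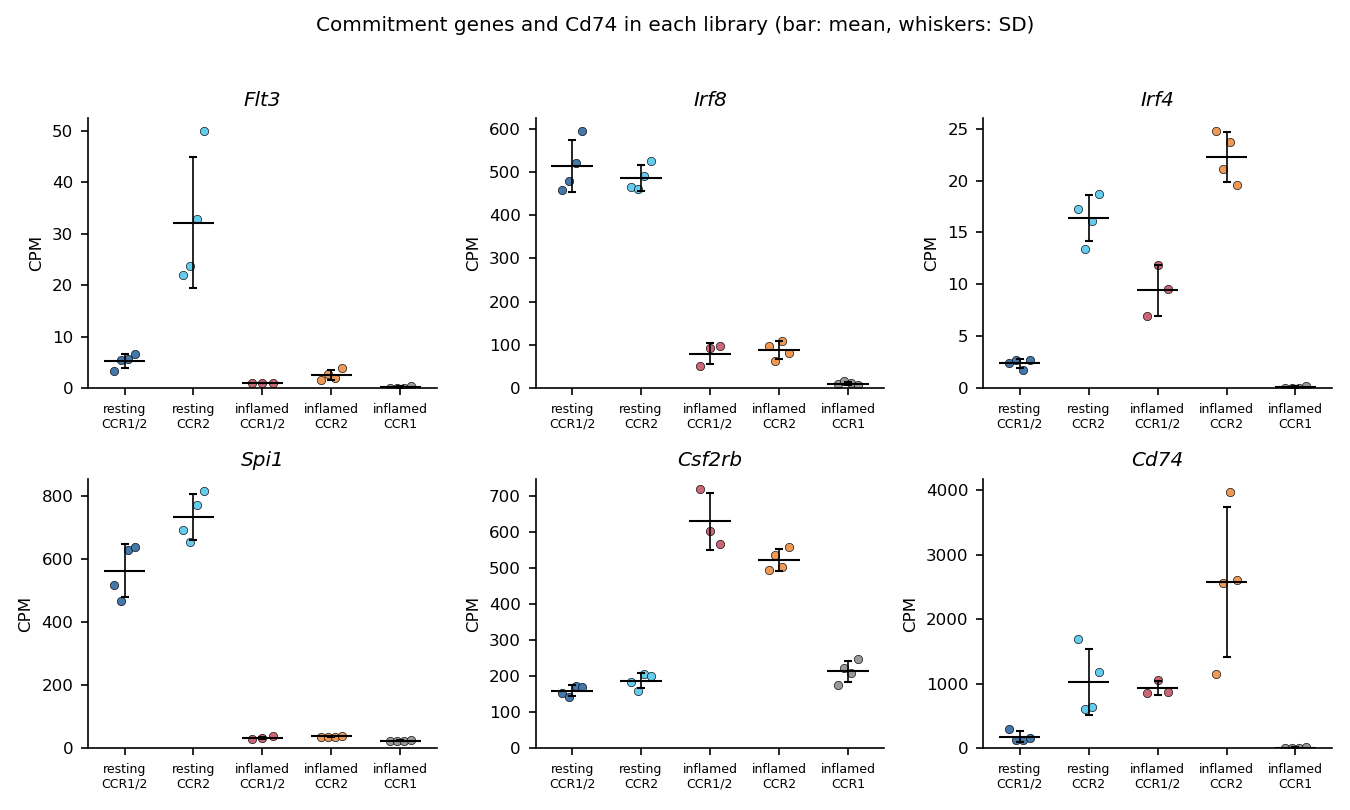
Each panel shows 1 gene, with the level in CPM on the vertical axis and the 5 groups on the horizontal axis; points are libraries, bars are means and whiskers are SD (n = 3 for inflamed CCR1/2, otherwise 4). Spi1 and Irf8 were low in all inflamed libraries, while Irf4 reached 24.8 CPM in inflamed CCR2+ve and Csf2rb 720.4 CPM in inflamed CCR1/2+ve monocytes.

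In CCR1/2+ve monocytes the same comparison of inflamed with resting cells called 3 of the 9 genes lower, Cd209a, Siglech and Zbtb46, against 19.4% of all genes. None of the 9 was called higher by edgeR, against 9.16% of all genes. Clec10a and Tcf4 were higher at an unadjusted p below 0.05, 2 in all, and DESeq2 called 1 higher, Clec10a. At the same p, 5 were lower, Batf3 and Clec9a besides the 3 called. The median log2 fold change was -1.03 over the 9 genes and -0.26 over all genes (-0.46 over all genes when reads were scaled by library sizes alone), so that the values are read against a shift of the whole distribution. The 9 genes summed to 143.8 ± 4.78 CPM (SD, n = 3) after inflammation and to 94.9 ± 16.1 CPM at rest (n = 4).

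Of 18 commitment genes 9 fell and 2 rose in inflamed CCR1/2+ve monocytes. Among them were Spi1 (-4.18 ± 0.13, adjusted p = 1.45e-09), Csf2ra (-4.08 ± 0.22, adjusted p = 2.61e-07) and Klf4, a monocyte factor (-2.188 ± 0.13, adjusted p = 1.12e-07). Csf2rb rose (1.85 ± 0.09, adjusted p = 2.71e-08), and so did Irf4, from 2.41, 2.69, 1.76 and 2.71 CPM to 6.93, 11.8 and 9.58 CPM (1.85 ± 0.25, adjusted p = 9.09e-05). Of 11 genes of MHC class II presentation 3 rose and 1 fell. Cd74 was measured at 862.3, 1065 and 879.9 CPM after inflammation (2.26 ± 0.32, adjusted p = 0.000324), and Ciita rose here too (2.53 ± 0.51, adjusted p = 0.00252).

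Of 8 other type 2 genes 3 fell, including Ltb (-4.22 ± 0.38, adjusted p = 2.84e-06) and Mgl2, a paralogue of Clec10a (-2.44 ± 0.52, adjusted p = 0.00394, and -1.79 without resting CCR1/2 replicate 2), and 1 rose. Of 15 other plasmacytoid genes 1 rose, Irf7, a factor of the type I interferon response that is transcribed in many cells (1.70 ± 0.24, adjusted p = 0.000301), and 2 fell, Atp1b1 among them (-4.30 ± 0.82, adjusted p = 0.00107, and -5.81 without inflamed CCR1/2 replicate 4). IFN-α was among the cytokines infused, and its part in these changes was not tested. Of 10 other type 1 genes 2 rose and 0 fell, and of 10 maturation genes 0 were called. Of 13 NK and T cell genes 3 fell, including Nkg7 (-3.30 ± 0.42, adjusted p = 0.000167), and 1 rose, with a sum of 14.0 to 22.4 CPM after inflammation (most abundant Klrk1, with Ncr1, Klrc1, Klrc2, Klra8 and Eomes at 0). Neutrophil genes rose in 5 of 7 and fell in 0 (1912 to 2308 CPM, most abundant Mmp8), monocyte genes rose in 4 of 10 and fell in 0 (54000 to 58060 CPM, Lyz2), tissue macrophage genes rose in 2 of 9 and fell in 4 (63.3 to 82.7 CPM, Axl), and B cell genes fell in 1 of 10 and rose in 0 (954.8 to 1657 CPM, Ighm). Their part in the levels of the 9 genes was not tested.

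Whether the response to inflammation differed between the populations was tested in 1 fit of the 15 libraries. Of the 9 genes 0 had a called difference in either direction, against 0.0911% of all genes with a positive and 0.123% with a negative difference. A difference is the log2 fold change in CCR1/2+ve minus that in CCR2+ve monocytes, so that a smaller fall in CCR1/2+ve monocytes counts as positive. At an unadjusted p below 0.05 there were 2, Clec9a (2.78 ± 1.17 on the log2 scale, adjusted p = 0.313) and Tcf4, both positive. That of Clec9a rests on the 5 and 8 inflamed reads given above and ran from 2.38 to 3.57 with 1 library left out, the highest without inflamed CCR2 replicate 2. DESeq2 gave an adjusted p for 4 of the 9, Cd209a, Clec10a, Batf3 and Tcf4, and called 0 of them. The median was 0.76 over the 9 genes and -0.10 over all genes. All genes called numbered 17 and 23, and 0 and 0 without inflamed CCR1/2 replicate 3 or 48 and 56 without resting CCR2 replicate 2. Among the list genes, 1 of 18 commitment genes had a positive difference, 3 of 9 tissue macrophage genes had a negative one, and edgeR called 0 in the other 9 lists.

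Between the inflamed populations 0 of the 9 genes were called by edgeR, against 0.102% of all genes higher and 0.0429% lower in CCR1/2+ve monocytes. At an unadjusted p below 0.05, 4 were lower in inflamed CCR1/2+ve monocytes, Cd209a, Clec10a, Batf3 and Tcf4, and 0 were higher. DESeq2 gave an adjusted p for 5 of the 9, these 4 and Xcr1, and called 0 of them. With replicate number as a block Cd209a passed (-2.35, adjusted p = 0.043), although the numbers were not taken to pair the inflamed libraries. Clec10a, Batf3 and Tcf4 did not overlap between the inflamed groups, with log2 fold changes of -0.59 ± 0.14 (adjusted p = 0.143), -1.0 ± 0.29 (0.289) and -0.33 ± 0.12 (0.407). The smallest exact permutation p that 3 against 4 libraries allow is 0.0571, and each of the 3 genes had it. Shares of all genes at an unadjusted p below 0.05, or without overlap between these groups, were not counted. The median was -0.39 over the 9 genes and -0.03 over all genes. The 8 genes called lower in all numbered 3, 2 and 4 without inflamed CCR1/2 replicate 2, 3 and 4, and 23, 4 and 3 without inflamed CCR2 replicate 1, 2 and 3.

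Of the 18 commitment genes 1 was called between the inflamed populations. Irf4 was measured at 24.8, 21.1, 23.8 and 19.6 CPM in inflamed CCR2+ve monocytes, above every inflamed CCR1/2+ve library (log2 fold change -1.25 ± 0.20, adjusted p = 0.0244). Its call was lost without inflamed CCR1/2 replicate 2 (adjusted p = 0.0528) or 4 (0.112), or without inflamed CCR2 replicate 2 (0.061) or 3 (0.0711). Of the genes of type 1, type 2 and plasmacytoid cells, maturation, MHC class II presentation, NK and T cells, B cells, monocytes and tissue macrophages 0 were called by edgeR. Of 7 neutrophil genes 2 were higher in inflamed CCR1/2+ve monocytes, Ngp among them (1.28 ± 0.15, adjusted p = 0.00369). The paper gives a gate that leaves out Ly6G-positive cells for its cultured and single-cell sorts. For the bulk libraries it refers to a supplementary list of antibodies. Among its CCR1/2+ve single cells, for which it names no cytokine infusion, it reports no neutrophils and a cluster of dendritic cells. It also removed contaminating B cells from those data. The part of neutrophils in the bulk libraries was not tested.

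In the libraries labelled inflamed CCR1, 6 of the 9 genes were lower than in the inflamed monocytes, and Zbtb46, Clec9a and Siglech were not. Zbtb46 was at 0.633 ± 0.158 CPM there (55 reads), Clec9a at 0.223 ± 0.416 CPM (19 reads, 18 of them in replicate 4) and Siglech at 0.16 ± 0.12 CPM (14 reads), each with overlap with both inflamed groups. Tcf4 was measured there at 13.5, 15.03, 12.3 and 13.2 CPM and Clec10a at 0.772, 0.632, 0.739 and 0.471 CPM, below every library of the other groups. Batf3 had 2 reads in all, both in replicate 1, Xcr1 had 7 and Cd209a 6, and Klrd1 was at 0 in all 4. Against inflamed CCR2+ve monocytes 6 of the 9 genes were lower, Cd209a, Clec10a, Batf3, Xcr1, Tcf4 and Klrd1, where 16.8% of all genes were called lower. By edgeR 0 of the 9 were higher, where 14.4% of all genes were, and 0 were higher at an unadjusted p below 0.05 or by DESeq2. Without inflamed CCR2 replicate 4, Zbtb46 was called higher (1.54, adjusted p = 0.0456). Clec10a was 138-fold lower (-7.09 ± 0.20, adjusted p = 2.33e-14) and Tcf4 7.24-fold lower (-2.85 ± 0.13, adjusted p = 6.27e-12). The ratio of Batf3 in inflamed CCR2+ve monocytes to these libraries was 152, with a 95% counting interval of 41.8 to 1264. Klrd1 was at least 5.34-fold lower with a floor of 3 reads over the group, which allows no error in the 16 reads of inflamed CCR2+ve monocytes. The 95% counting bound, which does, was 3.82-fold. Of the 16 reads 8 lie in inflamed CCR2 replicate 3, without which the floor gave 3.38-fold. Such intervals and bounds cover counting error only. The median of the 9 was -3.13, or -2.85 with Klrd1 at its floor, and -0.01 over all genes.

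Against inflamed CCR1/2+ve monocytes the same 6 genes were lower in these libraries, where 14.6% of all genes were called lower, and 0 of the 9 were called higher by edgeR or DESeq2 or at an unadjusted p below 0.05, where 13.2% of all genes were called higher. The median was -3.26 over the 9 genes, -2.54 with Klrd1 at its floor of at least 4.06-fold (counting bound 2.71-fold, and 3.03-fold from the floor without inflamed CCR1 replicate 1 or 2), and 0.00 over all genes. The Klrd1 call was lost with DESeq2 (adjusted p = 0.0945), with replicate number as a block (0.148) and without inflamed CCR1/2 replicate 2 (0.0548) or 4 (0.0641). The Cd209a call was lost with all 19 libraries in 1 fit (0.056), and its log2 fold change of -3.26 was -2.57 without inflamed CCR1/2 replicate 4. These 2 comparisons share the libraries labelled inflamed CCR1, so that they do not stand apart from each other.

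Against inflamed CCR2+ve monocytes, 10 of 11 genes of MHC class II presentation were lower in the libraries labelled inflamed CCR1, with Ctss, a protease of the class II pathway, at a log2 fold change of -7.84 ± 0.17 (adjusted p = 1.96e-15). Among 18 commitment genes 11 were lower and 2 higher, with Zeb2 at -4.31 ± 0.11 (adjusted p = 1.22e-14). Kit was among those higher (10.14 ± 0.39, adjusted p = 1.57e-10), and ran from 9.77 to 12.12 with 1 library left out. Among 10 maturation genes 4 were lower and 0 higher, with the costimulatory gene Cd86 at -5.86 ± 0.18 (adjusted p = 7e-14). Of 10 monocyte genes 8 were lower and 0 higher, and of 7 neutrophil genes 6 were higher and 1 lower, with Ngp at 9.33 ± 0.20 (adjusted p = 2.13e-15). Their sum was 92190 to 135800 CPM. Type 1 genes were higher in 2 of 10 and lower in 4, type 2 genes higher in 3 of 8 and lower in 3, plasmacytoid genes higher in 3 of 15 and lower in 4, NK and T cell genes higher in 2 of 13 and lower in 6, B cell genes higher in 1 of 10 and lower in 1, and tissue macrophage genes higher in 1 of 9 and lower in 4. Among the higher genes were Ly75 of the type 1 list (5.14 ± 0.16, adjusted p = 6.59e-14) and Mgl2 of the type 2 list (5.53 ± 0.37, adjusted p = 1.24e-06). Nkg7 of the NK and T cell list was higher too (9.30 ± 0.15, adjusted p = 1.86e-16). The part of other cell types in these differences was not tested.

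Among genes with a mean of at least 1 CPM, those whose log2 CPM followed a gene of the lineage list most closely over the 19 libraries are given as a description. Cd209a was closest to Eva1b and Chmp4b (Pearson r = 0.977 each) and Camkk2 (0.97). Clec10a was closest to Scpep1 and Pkp3 (0.993 each) and Ms4a6b (0.992). Batf3 was close to Metrnl (0.986) and Dpp4 (0.985), and Tcf4 was closest to Tmem176a (0.99), Tlr7 (0.986) and Ifitm3 (0.985). The libraries labelled inflamed CCR1 stretch these values. Over the other 15 libraries r was 0.965, 0.957 and 0.941 for Cd209a, 0.887, 0.936 and 0.872 for Clec10a, 0.896 and 0.923 for Batf3, and 0.958, 0.947 and 0.926 for Tcf4, in the same order of partners. The other 5 genes had means under 1 CPM and were not searched.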

How the data were processed

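Sequencing was of bulk RNA from the sorted cells. The authors checked the read pairs with fastp, aligned them to GRCm38 with STAR 2.7.10a and kept reads with 35 or more matched bases and 1 place of alignment. The table the authors deposited holds raw read counts per gene of Ensembl release 91, without normalization, for 50854 gene identifiers, of which 50744 matched a symbol. It has 20 columns of counts. The 1 column that matches no sample record was left out, so that 19 libraries in 5 groups were used. Groups were taken from the sample labels.

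Testing covered the 18652 genes that averaged 1 read or more in the 19 libraries. For each comparison its 2 groups alone were fitted with edgeR 4.0.16 (limma 3.58.1) in R 4.3.3 (TMM and the robust two-sided quasi-likelihood F test). p-values were adjusted over the genes tested by Benjamini-Hochberg. SE is the absolute log2 fold change over the root of F. Fold changes in words are ratios of mean CPM. Exact two-sided permutation tests, of which the smallest p is 0.0286 for 4 against 4 libraries, used CPM. Percentages of all genes are for genes called, and none was counted at an unadjusted p or for groups without overlap.

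Besides the 9 genes, 132 genes of 11 lists were read from the same fits (type 1, type 2 and plasmacytoid dendritic cells, commitment, maturation, MHC class II presentation, NK and T cells, B cells, monocytes, neutrophils and tissue macrophages), of which Wdfy4, Rpgrip1 and Gzmb, 3 in all, have no row. The 9 genes and the lists were chosen with earlier results of these data known. The genes named from a list are among its 3 with the smallest p in each direction in a comparison. Those whose call was lost without 1 library are counted but not named, except Irf4 between the inflamed populations. Of those whose call held, only some are named, and both choices were made after their values were seen. The genes following a member are the 3 with the highest r, of which 1 is not reported here.

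The alternatives were each library left out in turn, no fold threshold, replicate number as a block, all 19 libraries in 1 fit, filterByExpr or no filter in place of the filter on counts, RLE size factors, and the test of DESeq2 1.42.0. Scaling by library sizes alone and a filter over the 15 libraries without those labelled inflamed CCR1 were added after seeing the data. Whether replicate numbers pair the libraries was checked on 11176 genes. After group means were removed, resting libraries with the same number had correlations of 0.255 to 0.424 (4 pairs), against -0.290 to 0.198 for other numbers, so the numbers were taken to pair these libraries. In the other 5 comparisons the lowest value for the same number was 0.0861 or less, and the libraries were not taken as paired. In 1 of the 5, inflamed CCR1 against inflamed CCR2, values for the same number (0.0861 to 0.184) nevertheless all lay above those for other numbers (at most 0.0652).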

Additional observations from a re-analysis of the deposited data

Results flagged for a closer look

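Among 36 groups of 4 libraries, 9 genes in each of the 4 groups with that number, a library stood apart from the other 3 in 4 cases, by a gap that took up nearly all of the range of the group. Chance flags about 1 in 20 groups of normally distributed values, a rate that need not hold for reads near 0. Klrd1 was at 0 in all 4 libraries labelled inflamed CCR1 and has no range there. Clec10a in inflamed CCR2+ve monocytes was lowest in replicate 1, at 71.7 CPM, with a gap of 0.876 of the range. Clec9a in resting CCR2+ve monocytes was highest in replicate 1, at 2.09 CPM (0.831). In the libraries labelled inflamed CCR1, Clec9a was highest in replicate 4, at 0.847 CPM or 18 of the 19 reads of that group (0.945), and Batf3 in replicate 1, at 0.0909 CPM, from the 2 reads of the group.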

How the results depend on the processing

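Of 1606 values of single genes under the alternatives, 1538 kept their direction and their side of the threshold, 34 lost a call, 9 gained one and 25 changed direction. DESeq2 gave no adjusted p for 9 values of the 9 genes, 4 between the inflamed populations and 5 in the interaction, so these could not be called. The filter of filterByExpr removed Clec9a, Siglech and Klrd1 and also Zbtb46 between the inflamed populations, Xcr1 for inflamed CCR1 against inflamed CCR2 and Cd209a against inflamed CCR1/2. In each of the last 2 comparisons 5 of the 9 were tested under it and 4 were lower. Clec9a and Klrd1, 2 of the 9, were removed for inflammation in CCR1/2+ve monocytes. Each change of direction was in a gene that was not called, and the cause was not tested.

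Without a fold threshold, all genes called were 1575 higher and 1574 lower between the resting populations, 4082 and 3844 higher with inflammation in CCR2+ve and CCR1/2+ve monocytes, 4241 higher and 4731 lower for inflamed CCR1 against inflamed CCR2, 3771 and 4290 against inflamed CCR1/2, and 45 with a positive difference in the interaction, since this setting drops a condition. For the same reason 2 of the 9 genes were higher with inflammation in CCR1/2+ve monocytes. That count was 1 with DESeq2, RLE size factors or all 19 libraries in 1 fit. In CCR2+ve monocytes it was 0 with library sizes alone.

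Between the inflamed populations, all genes called higher were 43 with DESeq2, 33 without a filter, 36 with all 19 libraries and 35 with the replicate block. Those called lower were 64, 20, 17 and 45 in the same order, and 5 with filterByExpr. With the block 1 of the 9 genes was lower. In the interaction, genes with a positive difference were 82 with DESeq2, 34 with RLE size factors, 27 without a filter, 26 with filterByExpr and 36 with the block, and genes with a negative one 70 with DESeq2 and 41 with the block. The cause was not tested.

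With the replicate block Zbtb46 was -0.068 between the inflamed populations and 0.004 in the interaction, where it was 0.028 with RLE size factors.

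With each library left out in turn, all genes called higher between the resting populations ranged from 258 to 618, all genes lower between the inflamed populations from 2 to 23, and the interaction from 0 to 48 positive and from 0 to 56 negative differences. The count of the 9 genes that were higher ranged from 0 to 1 with inflammation in either population, and for inflamed CCR1 against inflamed CCR2. The count that were lower ranged from 4 to 6 between the resting populations, from 5 to 6 and from 2 to 4 with inflammation in CCR2+ve and CCR1/2+ve monocytes, and from 5 to 6 for inflamed CCR1 against inflamed CCR1/2. Log2 fold changes that changed direction were those of Zbtb46 between the resting populations (-0.159 to 0.318), between the inflamed populations (-0.209 to 0.594) and in the interaction (-0.319 to 0.521), Klrd1 between the inflamed populations (-0.708 to 0.246), Clec9a for inflamed CCR1 against inflamed CCR2 (-1.594 to 2.634) and inflamed CCR1/2 (-2.63 to 1.248), Siglech against inflamed CCR2 (-0.511 to 0.569) and in the interaction (-0.408 to 0.951), and Cd209a in the interaction (-0.001 to 1.322). The cause was not tested. With 22268658 reads or more on genes in each library, genes below 1 CPM had few reads, and depth limits what can be said of them.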

Other observations

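Several limits apply. Groups held 3 or 4 libraries. Siglech, Clec9a, Zbtb46 and Klrd1 had few reads, and leaving out single libraries moved a call of each. The libraries labelled inflamed CCR1 went against their label, and which cells they hold was not tested. The column of counts that matches no sample record was not used, and inflamed CCR1/2+ve monocytes have no replicate 1. Protein was not measured.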
